A study of Homo sapiens with 8 samples.

Results

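MeRIP-seq of U251 cells, an established human glioblastoma line, gave a list of stretches of RNA enriched by an antibody against N6-methyladenosine (m6A) over input RNA. The peaks described here are those that the list annotates as 3' UTR and whose bases lie in 2 or more blocks, that is, in separate pieces of the genome with a gap between them, as an RNA read across spliced exons would appear. There were 6282 such multi-block peaks among 18653 3' UTR peaks and among 42272 peaks in all. Neither the fold enrichment nor the p-value of a peak was used to choose them. The remaining 12371 3' UTR peaks, each in 1 block, and the 6095 5' UTR peaks of 2 or more blocks served as comparators.

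The labels name 8 libraries in 4 groups of 2, namely input RNA of U251 cells transfected with a control siRNA (si-NC), input RNA of cells transfected with si-HNRNPC, and a pair of 48 h groups with the same siRNAs that are not labelled as immunoprecipitate or input. HNRNPC is an RNA-binding protein that has been described as an m6A reader. The peak list is named as siRNA immunoprecipitate against siRNA input, without saying which siRNA. It has no value per library and does not name the transfection, so si-HNRNPC and si-NC could not be compared. No peak has a replicate error, and the depth behind a peak is unknown. All values below are therefore descriptions, and the intervals cover counting error over peaks only. The submitters' labels give U251 as the cell line, and a peak list gives no expression level against which its identity could be checked.

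m6A is placed on nascent mRNA by the METTL3 and METTL14 methyltransferase complex and is removed by the demethylases FTO and ALKBH5. It is known to be frequent near stop codons and in long last exons, and sparse close to exon junctions, where the exon junction complex sits after splicing. A 3' UTR usually lies in the last exon of a gene, so a 3' UTR peak in several blocks reaches over at least 1 gap into another piece of the transcript. No exon annotation was used here, so whether the upstream blocks were coding sequence, and where the stop codon lay, was not analysed.

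The gaps were first compared with splice sites, and the sequences below are shown because they give the letters at the block ends. The peak caller is not known. If it set block ends from an exon annotation, splice letters there were fixed in advance and say nothing of spliced reads. This was not tested. The first letters of an intron are nearly always GT (the donor) and its last letters AG (the acceptor). Reference sequence was at hand only for windows around gene starts (RefSeq, GRCh38.p14). The peaks had 10250 gaps, but only 121 distinct inner block ends fell in such a window. Of these, 103 (85.1%) bordered splice letters, 75 on the strand of the assigned gene and 28 on the opposite strand. The motifs searched were GT or AG on either strand, read as GT or CT and as AG or AC on the plus strand. Over all positions of the windows, GT or CT made up 11.7% and AG or AC 11.7%. Among the 21 ends in peaks whose bases overlapped no RefSeq gene other than the assigned one, 15 (71.4%) had splice letters, 14 of them on the assigned strand. Such peaks made up 69.0% of all multi-block 3' UTR peaks but held only these 21 of the 121 ends. The ends seen therefore do not stand for the multi-block peaks in general. The list does not name its genome build, and the coordinates were read as GRCh38 on the basis of these letters and of the overlap with RefSeq genes.
In the following 7 block ends, each in a peak that covered 1 RefSeq gene, the 30 bases run 5′ to 3′ on the strand of the gene and the splice letters in the gap are in capitals.
MRPS34 donor, chr16:1772589-1772618, minus strand: tcctgaccttcaaagGTaaggctcgggaga
UPF3A acceptor, chr13:114291590-114291619, plus strand: ttctcatccaggcAGtttatacacacgctc
UPF3A donor, chr13:114291778-114291807, plus strand: gaagtaaggattaagGTaattctgaggaaa
VSNL1 donor, chr2:17649611-17649640, plus strand: ctggagatcatcgagGTgaggcccggggtg
ITPK1 donor, chr14:92951931-92951960, minus strand: tcggtcctgacggagGTgggtccctctgct
KIF26B donor, chr1:245699023-245699052, plus strand: agtggctcagtgaatGTaaggccggggtgc
ZDHHC20 acceptor, chr13:21376641-21376670, minus strand: tttctttttttgtAGgtgtatgaaaacatt
Both ends of an inner block were seen in UPF3A, a factor of nonsense-mediated decay, whose peak had 6 blocks, 1650 covered bases and a fold enrichment of 11.8. The peak of MRPS34, a protein of the mitochondrial ribosome, had 2 blocks and a fold enrichment of 4.97, that of the neuronal calcium sensor gene VSNL1 2 blocks and 10.4, that of the inositol phosphate kinase gene ITPK1 3 blocks and 4.90, that of KIF26B 2 blocks and 16.5, and that of the palmitoyltransferase gene ZDHHC20 3 blocks and 2.64.

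The next pair of block ends is shown because the letters lay on the strand opposite to the assigned gene. Here the sequence is given on the strand on which the letters read as a splice site. Only the letters in capitals were matched, so the labels donor and acceptor rest on them alone.
Peak assigned to AC011611, donor, chr12:76030495-76030524, minus strand: cccgggcaagacaagGTaaggtcccggcac
Peak assigned to CALM3, acceptor, chr19:46609364-46609393, minus strand: acatggatggaagAGgcgagggcaaaagga
The first peak lay over PHLDA1 and PHLDA1-AS1 in RefSeq, with 2 blocks, 991 covered bases and a fold enrichment of 4.61. The second lay over CALM3, which encodes a calmodulin, and PTGIR, the prostacyclin receptor gene, with 237 covered bases and a fold enrichment of 2.73. The list carries the strand of the assigned gene but none of the peak. Of the 6282 multi-block peaks, 1184 (18.8%, 95% Wilson interval 17.9 to 19.8%) had bases in a RefSeq gene of the opposite strand.

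The gene behind a peak was accordingly not always plain. In 4332 peaks (69.0%) the assigned gene was the sole RefSeq gene, protein-coding or long noncoding, with bases in the blocks, and these are called single-gene peaks below. In 1392 peaks the blocks touched 2 or more RefSeq genes, in 520 they touched 1 gene that was not the assigned one, and in 38 they touched none. The peak assigned to the glycolysis gene PGK1, for example, had bases only in ATP7A, a copper transporter gene, and the peak assigned to RBMS3 had bases only in the noncoding LINC00693. The peak assigned to SNX22 also lay over PPIB, which encodes cyclophilin B.

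Multi-block peaks made up 33.7% of all 3' UTR peaks (95% Wilson interval 33.0 to 34.4%) and held 46.2% of their covered bases. By comparison, 61.3% of the 9947 5' UTR peaks and 32.3% of the 13672 peaks in other exons had 2 or more blocks. Most multi-block 3' UTR peaks were simple. Of the 6282, 3987 (63.5%) had 2 blocks, 1467 (23.4%) had 3, 506 (8.05%) had 4, 152 had 5, 76 had 6, and 94 (1.50%) had 7 or more. The 16532 blocks were separated by 10250 gaps with a median of 1525 bases and quartiles of 532 and 3838. Only 70 gaps, in 68 peaks, were under 50 bases, a length below that of nearly all human introns.

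**Figure D1:**
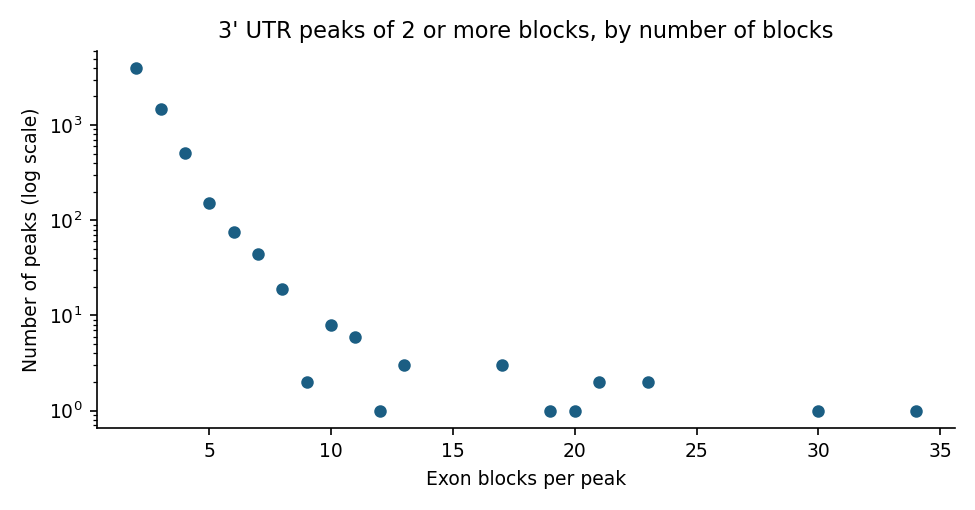
Number of 3' UTR peaks (vertical axis, log scale) at each number of exon blocks per peak (horizontal axis). Each point is a count of peaks, which falls from 3987 at 2 blocks to 76 at 6 and ends with 1 peak of 34 blocks.

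The peaks with the most blocks were the 34-block peak assigned to AL049873, which lay over LINC01500 and DACT1, the 30-block peak of CACNA1G, a calcium channel gene, 2 near-identical rows of 23 blocks in NBPF19, and the 21-block peaks of CHL1, a neural adhesion gene, and KIF1A, a kinesin gene. NBPF19 belongs to a family of near-identical copies with a repeated unit, and blocks of 52, 173 and 109 bases recurred along its peak, so the gene of origin is uncertain. CHL1 and KIF1A each had a log10 p of -1.31, the weakest value among these peaks, and a fold enrichment of 6.54. This same fold enrichment was the most frequent value in the list, at 2261 rows, of which 176 were multi-block 3' UTR peaks. Of those 176, 41 passed an FDR of 0.001.

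A multi-block 3' UTR peak covered a median of 660 bases (95% interval of the median 656 to 685, quartiles 416 and 1048, range 59 to 13643) and spread over a median of 3201 bases of genome (quartiles 1558.75 and 7209.5). Single-block 3' UTR peaks covered 330 bases (quartiles 181 and 628), and multi-block 5' UTR peaks 570 (quartiles 300 and 1070). The genomic spread reached 742294 bases in HS6ST3, a heparan sulfate sulfotransferase gene, although this peak covered only 1376 bases, 13 of them in its upstream block.

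**Figure D2:**
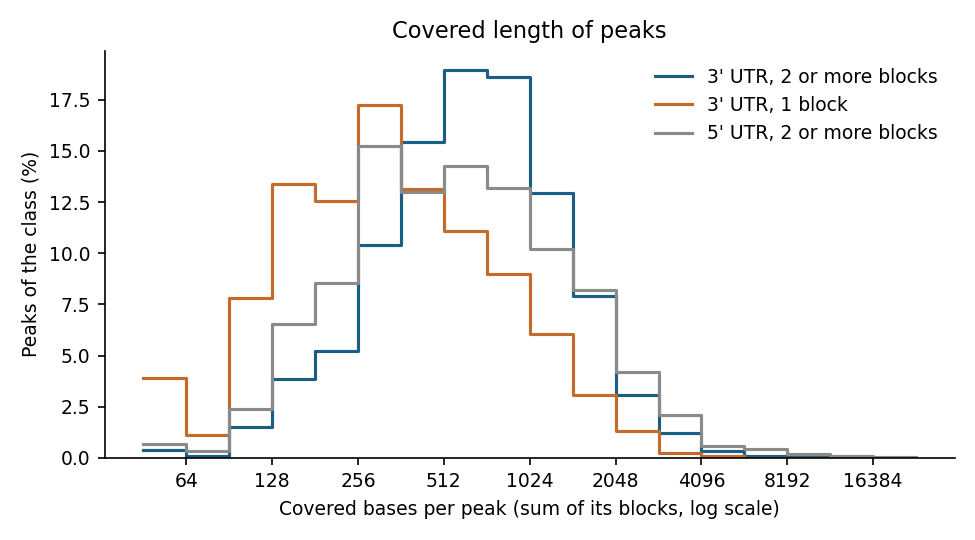
Covered bases per peak (horizontal axis, sum of the block lengths, log scale) against the percent of the peaks of each class (vertical axis). Lines show 3' UTR peaks of 2 or more blocks, 3' UTR peaks of 1 block and 5' UTR peaks of 2 or more blocks. The multi-block 3' UTR peaks lie to the right of the single-block ones, with medians of 660 and 330 bases.

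The bases were not shared evenly among the blocks. With blocks put in order from 5′ to 3′ by the strand of the assigned gene, the 3'-most block of the single-gene peaks was 439 bases long at the median (quartiles 217 and 750), and all blocks upstream of it together 146 (quartiles 67 and 302). The 3'-most block was longer than everything upstream of it in 3218 of these 4332 peaks (74.3%, 95% Wilson interval 73.0 to 75.6%), and it held 75.7% of the covered bases at the median. Over all 6282 peaks, where the assigned strand is less certain, the 3'-most block was the longer side in 65.8% and held 69.2% of the bases at the median. Inner blocks, which have a gap on both sides, had a median of 124 bases in both sets.

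In many peaks the last gap had only a short stretch of covered bases on 1 side. The shorter side of the last gap was under 30 bases in 698 of the single-gene peaks (16.1%). At the other extreme, both sides held at least 100 bases in 2323 (53.6%), and the upstream side held at least 400 bases in 804 (18.6%). EGFR, the receptor tyrosine kinase gene amplified in many glioblastomas, had an upstream block of 5 bases and a 3'-most block of 1523. ITGA3, an integrin subunit gene, had 8 and 1372 bases. SYMPK, which encodes a scaffold of the mRNA 3′ end processing machinery, had 311 and 288. YTHDF1, an m6A reader gene, was turned the other way, with 1630 bases in its upstream blocks, 1521 of them in 1 block, and 198 in the 3'-most.

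**Figure D3:**
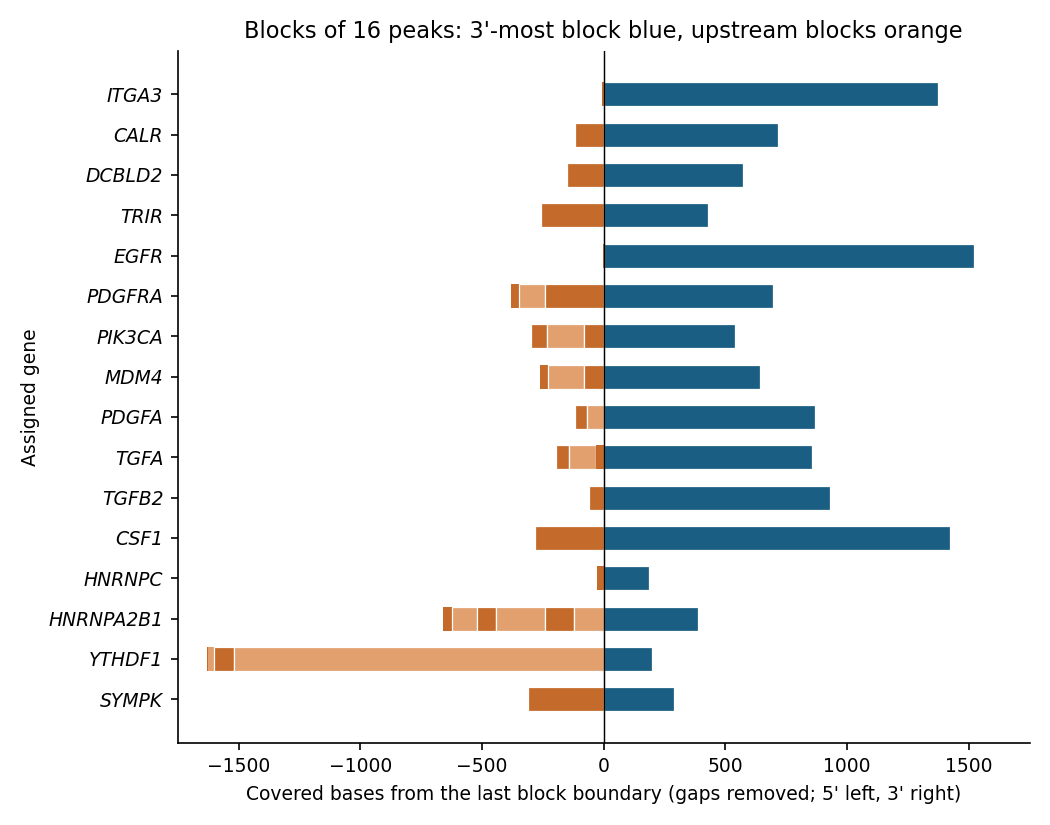
Blocks of 16 peaks named in the text, 1 row per assigned gene, drawn to scale with the gaps removed. The horizontal axis gives covered bases counted from the last block boundary, with the 3'-most block in blue to the right and upstream blocks in alternating orange to the left. The 3'-most block is the longer side in 13 of the 16, and HNRNPA2B1, YTHDF1 and SYMPK are the exceptions.

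Few of the peaks ended at the annotated end of their transcript. The 3′ end of the peak was the last base of the assigned transcript in 293 of the 4332 single-gene peaks (6.76%) and lay past it in 546 (12.6%). The median peak stopped 1708 bases before the transcript end (quartiles 192 and 4737.75). These are bases of genome with any introns included, so they are not lengths of 3' UTR. At the other end, 834 of the single-gene peaks (19.3%), and 29.1% of all 6282, began at or before the first base of the assigned transcript, which limits what the distance to that transcript's end can say of them. MAP3K10 and TRIR were among those that stopped at the last base. The list gives 1 transcript per peak, and other 3′ ends of the same gene were not analysed.

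The median fold enrichment of multi-block 3' UTR peaks was 6.22 (95% interval of the median 6.06 to 6.37, quartiles 3.50 and 9.39, range 1.11 to 233), against 4.17 (quartiles 2.29 and 7.63) for single-block 3' UTR peaks, a difference of 0.58 in log2 (from 0.485 to 0.653 over the intervals of both medians). Multi-block 5' UTR peaks had a median of 6.49. The median log10 p was -43.25 for the multi-block and -6.41 for the single-block 3' UTR peaks. An FDR under 0.05 was reached by 5805 of the multi-block 3' UTR peaks (92.4%), against 81.6% of all peaks in the list. An FDR under 0.001 was reached by 5247 (83.5%, 95% Wilson interval 82.6 to 84.4%), against 62.0% of all peaks, 63.8% of the single-block 3' UTR peaks and 70.2% of the multi-block 5' UTR peaks.

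Fold enrichment moved with covered length, and when peaks of like length were set beside each other the difference between the classes was small and in each bin lay on the side of the single-block peaks. Pooled over the middle bins, in which multi-block peaks were still longer (median 509 against 390 covered bases), the log2 ratio of the medians was 0.12. Under 239 bases the median fold enrichment was 2.13 for 552 multi-block and 2.18 for 4084 single-block 3' UTR peaks. From 239 to under 421 bases it was 3.27 for 1148 and 3.47 for 3489 peaks. From 421 to under 781 bases it was 5.55 for 2072 and 6.22 for 2624 peaks. From 781 bases it was 8.71 for 2510 and 8.80 for 2174 peaks. These limits are the quartiles of all 3' UTR peaks. The p-values kept a gap in the same bins, with a median log10 p of -51.9 against -17.05 in the third bin and of -108 against -45.8 in the fourth, and the share past an FDR of 0.001 was higher for multi-block peaks in each, from 41.8% against 33.2% in the shortest to 89.1% against 85.9% in the longest. Read depth, on which a p-value depends, is not in the list, and its part in this was not tested.

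**Figure D4:**
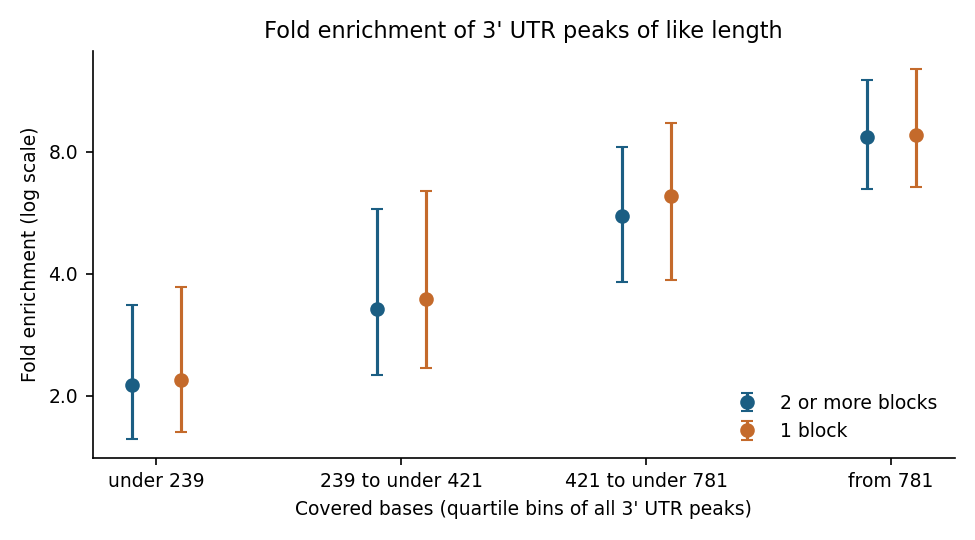
Fold enrichment over input (vertical axis, log scale) of 3' UTR peaks in 4 bins of covered bases (horizontal axis). Points are medians and bars span the quartiles, for peaks of 2 or more blocks and of 1 block. Both classes climb from about 2 in the shortest bin to between 8 and 9 in the longest, with overlapping bars in every bin.

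The same comparison could be made inside genes. Of the 2371 genes that carried both kinds of 3' UTR peak, 1517 (64.0%, 95% Wilson interval 62.0 to 65.9%) had the higher fold enrichment in the multi-block peak, with a median difference of 0.43 in log2. The multi-block peak covered more bases in 1751 of these genes, and there it had the higher fold enrichment in 76.0% (median difference 0.77). In the 585 genes whose multi-block peak covered fewer bases, it had the higher fold enrichment in 29.2% (median difference -0.49). Inside genes too, the longer peak tended to be the one with the higher fold enrichment.

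Both measures moved with the number of blocks, though not in the same way. The median fold enrichment was 5.76 for peaks of 2 blocks, 6.54 for 3, 7.15 for 4, 7.41 for 5, 7.58 for 6 and 8.71 for 7 or more, while the median covered length went from 570 to 1883.5 bases. The share past an FDR of 0.001 was 84.3%, 85.8% and 82.2% for 2, 3 and 4 blocks, 74.3% and 73.7% for 5 and 6, and 46.8% for the 94 peaks of 7 or more blocks. The peaks of 7 or more blocks had a median log10 p of -3.62. The longest peaks by covered bases had 6 to 21 blocks. SCN1A, a sodium channel gene, covered 13643 bases with a log10 p of -1.85, C1orf61 10778 bases with -6.55, KIF1A 9810 with -1.31, SCN2A 8070 with -3.86 and CHL1 7017 with -1.31. Of these, C1orf61 and SCN2A passed an FDR of 0.001.

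The lowest p-values belonged to peaks of 2 blocks. ITGA3 came first, at a log10 p of -13400 and a fold enrichment of 7.57 (chr17:50088359-50090481). CALR, which encodes the endoplasmic reticulum (ER) chaperone calreticulin, followed at -9110 and 6.14, with blocks of 118 and 717 bases (chr19:12943512-12944429). The SNX22 peak, shared with PPIB, had -7950 and 6.94. DCBLD2, a membrane receptor gene, had -7130 and 5.40, with blocks of 150 and 571 bases. TRIR, a ribonuclease gene, had -6340 and 13.4, with blocks of 257 and 429 bases. The log10 FDR was written as minus infinity for these and other very low p-values, in 816 multi-block peaks in all.

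At the upper end of fold enrichment, among peaks past an FDR of 0.001, stood SYMPK at 233, AC135048 at 143, with bases in FBXL19, IKBKG at 139, HIRA at 106 and MAP3K10 at 101. IKBKG encodes the regulatory subunit NEMO of the IKK complex, and its peak had 5 blocks. It has a near-identical pseudogene copy, so its reads may be split or shared. HIRA is a histone chaperone gene, but the blocks of its peak also touched LOC105372859, so the gene behind it is not plain. MAP3K10 encodes a mixed lineage kinase. Their log10 p ranged from -42.3 for IKBKG to -363 for AC135048, weaker than those of ITGA3 or CALR. At the lower end stood KDELR2 at 1.17, IK at 1.18, LUC7L2 at 1.20, HSPA4 at 1.20 and HSPH1 at 1.21. These 5 peaks covered 120 to 181 bases, and HSPA4 and HSPH1, which belong to the Hsp110 chaperones, were nearly alike in their blocks, with 118 and 62 bases and 116 and 65 bases.

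The peaks carried 5316 gene identifiers, 30.9% of the 17180 in the list and 51.6% of the 10306 with any 3' UTR peak. Of these, 4530 had 1 multi-block 3' UTR peak, 650 had 2 and 136 had 3 or more. For 1413 genes (26.6%) the list held no peak other than multi-block 3' UTR peaks. TTLL13P had the most rows, 10, and RAD50 had 8. Rows were not all separate, since 23.7% of the multi-block peaks shared at least 1 base with another row, against 18.6% of the single-block 3' UTR peaks. Chromosome 19 held 6.83% of the multi-block peaks and 9.44% of the single-block ones, and chromosome 1 held 10.5% and 9.43%.

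Genes were then grouped by function. Over all 16701 gene names with a peak, 31.7% carried a multi-block 3' UTR peak. That background includes names with no 3' UTR peak at all. Of the 10261 names with a 3' UTR peak, 5297 carried a multi-block 3' UTR peak. Counted over genes with any peak and without an FDR limit, the share was highest among ER chaperones and folding enzymes, at 14 of 24 (58.3%, 95% Wilson interval 38.8 to 75.5%), followed by glioma driver genes at 16 of 29 (55.2%, 37.5 to 71.6%), collagens, laminins and integrins at 18 of 35 (51.4%, 35.6 to 67.0%) and kinases of the MAP kinase cascades at 19 of 38 (50.0%, 34.8 to 65.2%). The m6A writers, erasers and readers had 12 of 24 (50.0%) and translation factors 17 of 36 (47.2%). Spliceosome and SR proteins had 15 of 40 (37.5%), actin and tubulin cytoskeleton genes 11 of 31 (35.5%), exon junction complex and nonsense-mediated decay genes 7 of 20 (35.0%), cytosolic ribosomal proteins 11 of 37 (29.7%), proteasome subunits 6 of 21 (28.6%) and glycolysis enzymes 3 of 12 (25.0%). Over genes with a 3' UTR peak, glioma drivers (16 of 20) came before ER chaperones (14 of 19), beside 51.6% over all gene identifiers. Translation factors had 17 of 26, m6A genes 12 of 19 and the collagen list 18 of 29. Nearer 51.6% were MAP kinase cascade kinases (19 of 34), spliceosome and SR proteins (15 of 27) and cytoskeleton genes (11 of 22). Ribosomal proteins (11 of 25), proteasome subunits (6 of 14) and glycolysis enzymes (3 of 8) were below it. At an FDR under 0.001, over genes with any peak, glioma drivers came first, at 72.7% against 63.6%, beside 35.5% over all gene names. The lists were assembled by hand, are small, and were counted by the assigned gene. The 3 glycolysis genes thus include PGK1, whose peak had bases only in ATP7A.

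**Figure D5:**
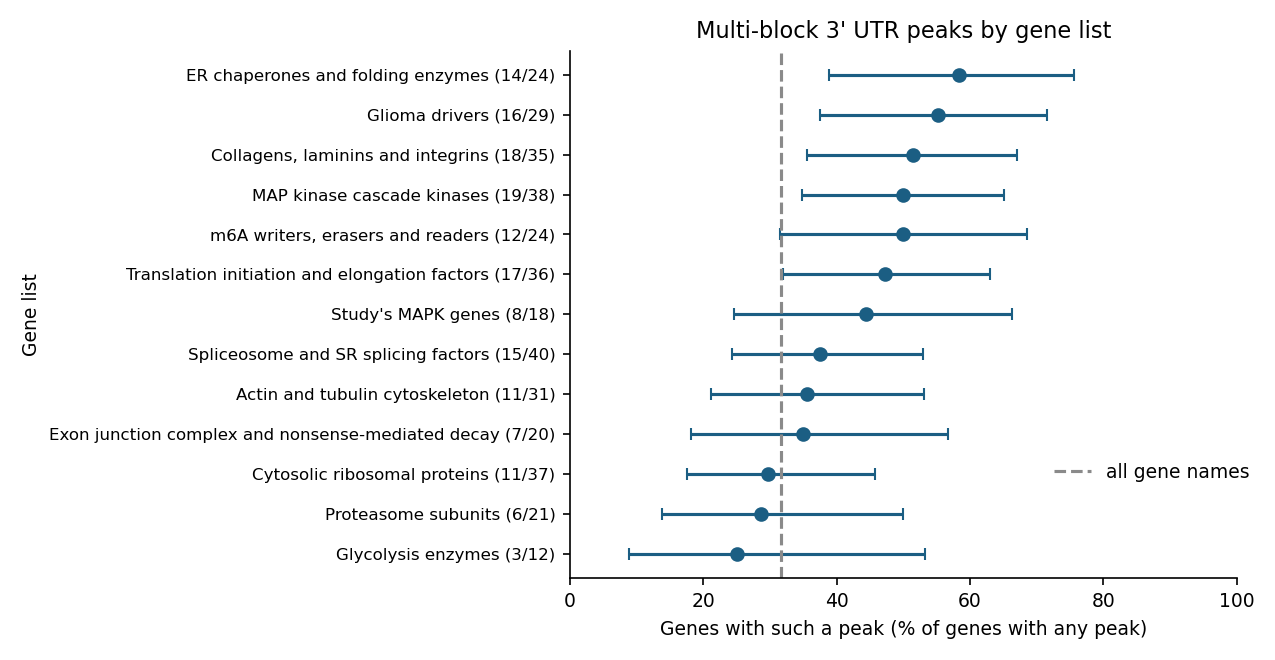
Percent of the genes with any peak that carry a multi-block 3' UTR peak (horizontal axis) in 13 gene lists (vertical axis, with counts). Points are shares, bars are 95% Wilson intervals and the dashed line is the 31.7% of all gene names. The line counts every name with a peak, including names with no 3' UTR peak. The intervals of ER chaperones, glioma drivers, the collagen, laminin and integrin list, MAP kinase cascade kinases and translation factors begin above the line.

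The lists also differed in fold enrichment. The lowest medians were those of proteasome subunits, at 2.23 over 6 peaks (1.82 to 2.97), of cytosolic ribosomal proteins, at 2.95 over 13 peaks (1.35 to 40.3), and of spliceosome and SR proteins, at 3.24 over 16 peaks, against 6.22 over all multi-block 3' UTR peaks. The highest were those of MAP kinase cascade kinases, at 7.57 over 26 peaks (1.48 to 101), and of the 19 MAPK pathway genes singled out in the study, at 8.83 over 9 peaks (5.60 to 15.1). The study chose those 19 genes for differences in m6A peaks and mRNA in these same cells. Peaks were thus part of the choice, and the rank of this list in fold enrichment is no independent result. Median covered lengths were 286 bases for the proteasome, 419 for ribosomal proteins, 418 for spliceosome and SR proteins, 825 for the MAP kinase cascade and 1018 for the study's MAPK genes. The exon junction complex and nonsense-mediated decay genes covered 1495 bases with a median fold enrichment of 6.59, and the m6A genes 915 bases with 5.14, so the order of the lists by length was not their order by fold enrichment.

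HNRNPC, the transcript that si-HNRNPC targets, had a peak at chr14:21211382-21211835 with 2 blocks, 26 bases upstream and 185 bases in the 3'-most block, 211 in all. Its fold enrichment of 2.45 (log10 p -49.3) was below the lower quartile of the multi-block 3' UTR peaks of all lengths. Among those under 239 covered bases, where this peak belongs, the median was 2.13 (quartiles 1.56 and 3.35), so 2.45 was not low for its length. Other genes of the m6A machinery had longer peaks. HNRNPA2B1, which encodes another m6A-associated ribonucleoprotein, had 7 blocks over 1051 bases, a fold enrichment of 5.74 and a log10 p of -4600. YTHDF1 had 5 blocks over 1828 bases and 9.24. CBLL1, a subunit of the methyltransferase complex, had blocks of 31 and 1105 bases and 5.10. IGF2BP2, which encodes a reader that stabilises bound mRNAs, had 82 and 548 bases and 2.62.

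IRAK1, the target gene the study followed, carried no multi-block 3' UTR peak. This does not mean that IRAK1 had no 3' UTR peak, since single-block peaks of named genes are not described here. The study reported that the IRAK1 m6A peak changing most after HNRNPC knockdown lay in the 3' UTR. The study's 19 MAPK genes were chosen in part for changed m6A peaks, so having a peak at all was largely set by that choice. Of the 19, 18 had a peak and 8 had a multi-block 3' UTR peak. These were 44.4% of the 18 (Wilson interval 24.6 to 66.3%), an interval that includes the 31.7% of all gene names with a peak. Over genes with a 3' UTR peak the count was 8 of 16, beside 51.6% over all gene identifiers. By these counts the list did not stand out from all genes. Where a gene had several multi-block 3' UTR peaks, the peak with the lowest p-value is given. CSF1, the macrophage colony-stimulating factor gene, had 284 bases upstream and 1423 in the 3'-most block, with a fold enrichment of 8.03. Its other multi-block peak had 5 blocks and the opposite layout, with 1159 bases upstream, 159 in the 3'-most block and a fold enrichment of 7.40. PDGFA had 117 and 869 bases and 13.3, TGFA 195 and 855 bases and 9.20, TGFB2 59 and 931 bases and 9.96, and KITLG, the ligand of the receptor KIT, 108 and 763 bases and 8.25. The receptor gene KDR had 172 and 846 bases and 8.83, and the transcription factor gene MECOM 494 and 706 bases and 15.1. MAP3K14, the kinase of the noncanonical NF-kappaB pathway, had 144 and 276 bases and 5.60, the lowest of these, and its blocks also lay over MAP3K14-AS1 on the other strand. In the MAP kinase cascade list outside these genes, MAP2K4 had 3 blocks and a fold enrichment of 8.83, MAP3K7 2 blocks and 7.13, MAP3K2 3 blocks and 5.93, and MAP3K11 2 blocks and 5.86.

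Among glioma drivers, the EGFR peak had a fold enrichment of 12.2 (chr7:55203072-55206778). PDGFRA, another receptor tyrosine kinase gene, had 4 blocks of 33, 106, 242 and 697 bases and 8.36. PIK3CA, the catalytic subunit gene of a phosphoinositide kinase, had 4 blocks of 65, 152, 83 and 541 bases and 11.2. MDM4, an inhibitor of p53, had 4 blocks of 29, 150, 81 and 640 bases and 16.8. The last 3 peaks covered 841 to 1078 bases and had the same layout, with 3 short blocks before a long one.

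In the extracellular matrix and adhesion list, ITGA5 had a fold enrichment of 8.37 and ITGA6 8.25, but the blocks of both also touched another gene, GPR84-AS1 and PDK1-AS1 respectively. COL5A2, a fibrillar collagen gene, had 231 and 370 bases and 3.98. Among ER genes, besides CALR, PDIA4 had 172 and 638 bases and 4.53, SEL1L, a part of the ER degradation machinery, 175 and 1203 bases and 8.67, and HERPUD1 3 blocks and 3.43. Among translation factors EIF4G1, the scaffold of the cap-binding complex, had 178 and 482 bases and 6.95, ETF1, the release factor, 36 and 920 bases and 6.57, and EIF3A 8 blocks over 2158 bases and 4.79. The peak assigned to EIF2B1 also lay over DDX55.

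Genes of junction recognition and splicing carried peaks of several shapes. UPF1, the helicase of nonsense-mediated decay, had 89 and 1680 bases and a fold enrichment of 6.69. SMG1, the kinase that phosphorylates UPF1, had 101 and 919 bases and 9.30. ACIN1 and PNN, both exon junction complex associated, had 3 blocks and 7.27 and 6 blocks and 3.65. SRSF4 had 74 and 1065 bases and 4.47, SRSF5 146 and 453 bases and 7.10, SRSF11 160 and 260 bases and 3.72, and SNRPD3 169 and 250 bases and 4.17.

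In the housekeeping lists, PSMC3, PSMC4, PSMD4 and PSMD7 covered 210 to 420 bases, with fold enrichments of 2.92, 1.90, 2.97 and 2.08. RPL41, RPL13A and RPL26 covered 419, 750 and 329 bases, with 2.95, 2.55 and 2.29, while RPL37 covered 290 bases with 13.5. Ribosomal protein genes have many processed copies in the genome, and how reads that match several copies were assigned is not known. HK2 and HK1, the hexokinase genes, had 9.06 and 6.42. In the cytoskeleton list MYH9 had 85 and 366 bases and 2.83, VCL 10 and 559 bases and 5.33, and TUBG1 52 and 395 bases and 7.58.

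Some blocks also held microRNA genes. Of 1562 hairpins in the RefSeq table, 13 had bases in the blocks of these peaks, 6 of them with the whole hairpin, and 25 lay only in gaps. Mature sequences of 4 of the 6 are shown because their hairpins sat wholly inside a block of a peak past an FDR of 0.001, with the seed, bases 2 to 8, in capitals.
hsa-miR-1182 (chr1:231019841-231019863, minus strand): gAGGGUCUugggagggaugugac
hsa-miR-4271 (chr3:49274158-49274176, plus strand): gGGGGAAGaaaaggugggg
hsa-miR-922 (chr3:197674498-197674520, minus strand): gCAGCAGAgaauaggacuacguc
hsa-miR-6866-3p (chr17:40161980-40162001, plus strand): gAUCCCUUuaucuguccucuag
No seed was shared among these 4. The MIR4271 peak, with 2 blocks over 657 bases and a fold enrichment of 5.76, lay in C3orf62, and the MIR922 peak, with 1048 bases and 8.84, lay in RUBCN. The peak over MIR1182 was assigned to AL732414 on the plus strand but lay in FAM89A, with a fold enrichment of 7.07. The MIR6866 hairpin lay in the 5-block peak of CASC3, a core protein of the exon junction complex, which had a fold enrichment of 2.68. In total 20 multi-block peaks were named after a microRNA gene in the list. A peak that covers a hairpin in a poly(A) RNA library comes from the transcript around it as well, and mature microRNA was not measured.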

How the data were processed

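The 8 libraries comprised si-NC and si-HNRNPC input RNA and si-NC and si-HNRNPC libraries at 48 h, 2 of each. Per the submitters' processing notes, fastp and HISAT2 were used. Their versions, the peak caller, the build and the annotation were not given in the sources used here. One peak list of 24 columns was used. Fold enrichment is a linear ratio, immunoprecipitate over input, computed by the authors, and the deposited p-value, log10 p and log10 FDR are those of the authors' peak caller, handled as scores because they reach below the usual range of log10 values. The list has no strand for peaks and no value per library. Peaks annotated as 3' UTR with at least 2 blocks were taken. Covered bases were the sum of block lengths, and blocks were ordered by the strand of the assigned gene. RefSeq tables of GRCh38.p14 gave overlapping genes, windows around gene starts and microRNAs. Shares have 95% Wilson intervals and medians order-statistic intervals, and both procedures and the block ordering were tested on simulated data. No test was run, since no replicates could be separated. Peaks of 1 gene are not independent.

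The peaks and all 13 gene lists were chosen with earlier results of these data known. Genes named are the first 5 by number of blocks, covered bases, span, fold enrichment (highest and lowest at an FDR under 0.001) and p-value, up to 4 per list by p-value, and those named by the study. The genes beside printed sequences, PPIB, TTLL13P, RAD50 and other overlapping genes were chosen after their values were seen. One microRNA result is not reported here. Alternatives are given in the closing section. Python 3.11.15, pandas 2.3.3, NumPy 2.4.6, SciPy 1.17.1 and matplotlib 3.10.9 were used.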

Additional observations from a re-analysis of the deposited data

How the results depend on the processing

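No paired analysis was possible because values per library are missing from the peak list. Of 55 alternative values, 28 stayed within the 95% interval of the reported value and 27 moved outside it, and the log2 ratio of median fold stayed above 0 in all 7 of its alternatives, although within each of the 4 length bins of the report the median of the multi-block peaks was the lower one. At an FDR under 0.001 the share of 3' UTR peaks with 2 or more blocks was 39.92%, their median covered length 691 bases, the log2 ratio of median fold over single-block peaks 0.46 and the share of bases in the 3'-most block 73.03%. With a fold enrichment of at least 2 the share of peaks was 36.46%, covered length 717, median fold 6.54 and log2 ratio 0.28. With overlapping rows of a gene counted once, which dropped 1612 rows, covered length was 689 and the 3'-most share 71.07%. With 1 row per gene the share of peaks was 44.38%, covered length 749, median fold 6.635, log2 ratio 0.28 and the 3'-most share 73.53%. With 3 or more blocks the values were 12.3% of peaks, a median of 3 blocks, 839 bases, a fold of 6.64, a log2 ratio of 0.67 and a 3'-most share of 50.15%. In peaks of the middle length quartiles the log2 ratio was 0.12. With single-gene peaks only, an alternative added after seeing the data, covered length was 688 and the 3'-most share 75.71%. The share ending at the transcript end, 7.59% to the base, was 8.34% within 5 bases. The shares of 12 of the 13 gene lists stayed within their intervals at an FDR under 0.001. Glioma drivers moved to 72.73%, with 16 genes carrying a peak in both settings and the number of genes with any peak going from 29 to 22, while the share over all gene names moved from 31.72% to 35.49%. The causes of these shifts were not tested, beyond the fewer peaks each alternative keeps. Depth, replicate spread and the transfection behind each peak are unknown.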
